A study of Mus musculus with 6 samples.

Results

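The protein arginine methyltransferases are the enzymes that transfer methyl groups from S-adenosylmethionine to arginine side chains. The 9 genes of the mouse family (Prmt1, Prmt2, Prmt3, Carm1, Prmt5, Prmt6, Prmt7, Prmt8 and Prmt9) were chosen by symbol and not by their measured values, although earlier results of these data were known. All 9 were found among the 36008 genes of the gene table, and all of their 65 annotated transcripts were found among the 118783 transcripts of the per-mouse files. The RNA was polyA RNA from the hippocampus of 3 wild-type (WT) and 3 Prmt9 KO female B6J mice at 2 weeks of age, the KO mice being whole-body knockouts in which floxed exon 5 had been removed through a CMV-Cre line, and the WT mice same-sex littermates. The question for this family was whether the mRNA of any other arginine methyltransferase, or the use of its isoforms, differed where Prmt9 was lost.

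Type I members form asymmetric dimethylarginine, type II members (PRMT5 and PRMT9) form symmetric dimethylarginine, and PRMT7, the type III member, forms monomethylarginine only. Much of the known substrate list is RNA-binding and spliceosomal protein, and PRMT9 itself methylates the splicing factor SF3B2. PRMT8 is the one member whose expression is known to be largely limited to the brain. In bulk tissue, as here, fewer cells of a type and less RNA per cell cannot be told apart.

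The sequences that bear on the knockout are those around exon 5 of Prmt9, which lies at chr8:77562414-77562516 on the plus strand (GRCm38, GENCODE M21 annotation) inside a gene spanning chr8:77549397-77581338. Exon 5 is coding over all of its 103 bases in Prmt9-201, the 12-exon coding transcript, and 103 leaves a remainder of 1 when divided by 3. It is shown because it is the deleted part, and the join of exon 4 to exon 6 is shown because it is the reading frame that a transcript without exon 5 would have. The join starts with the last 24 bases of exon 4, and its capitals mark the first in-frame stop codon after it.
Prmt9 exon 5: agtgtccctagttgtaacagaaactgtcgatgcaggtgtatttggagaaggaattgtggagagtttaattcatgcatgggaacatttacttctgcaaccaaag
Prmt9 exon 4 joined to exon 6: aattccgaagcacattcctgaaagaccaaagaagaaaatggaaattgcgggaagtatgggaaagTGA
Read this way, the frame holds 261 codons before the stop, against 846 codons before the annotated stop, which is 30.9% of them. The new stop lies in exon 6, 1436 bases upstream of the last exon junction. None of the 5 annotated Prmt9 transcripts joins exon 4 to exon 6, so the quantification had no such sequence to assign reads to.

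Alternative coding exons are annotated in 2 other members whose isoforms were compared below. The penultimate exon of Carm1 (CARM1, the coactivator-associated enzyme that methylates histone H3 and splicing factors) is exon 15 of Carm1-201, at chr9:21587851-21587919 on the plus strand. The alternative early exon of Prmt1 (PRMT1, the enzyme known for most asymmetric dimethylation in cells) is exon 2 of Prmt1-202, at chr7:44984080-44984133 on the minus strand. Both are fully coding, and their lengths of 69 and 54 bases keep the reading frame.
Carm1 exon 15: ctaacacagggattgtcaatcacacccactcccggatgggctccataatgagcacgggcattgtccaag
Prmt1 alternative exon: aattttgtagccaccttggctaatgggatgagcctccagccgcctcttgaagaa

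Libraries were deep, with 194098391 to 249217021 estimated counts in the WT mice and 222085851 to 286771677 in the KO mice, and 1 mouse of each genotype stood apart. WT replicate 1 and KO replicate 1 lay on one side of the first principal component (67.4% of the variance) and the other 4 mice on the other. Summed TPM, the transcript level scaled by length and library, of the 2 oligodendrocyte markers Mbp and Mog was 1459 in WT replicate 1 and 711 in KO replicate 1, against 4871 to 6925 in the other 4 mice. The same 2 mice were also apart for excitatory neuron markers (909 and 938 against 1182 to 1292 TPM). They were apart for inhibitory neuron markers too (146 and 182 against 246 to 263 TPM). Their endothelial sum was 122 and 105 against 51.5 to 60.8 TPM, which rested on Cldn5 (107 and 89.2 against 37.1 to 45.2 TPM). Pecam1, the other endothelial marker, did not set them apart (14.9 and 15.8 against 13.5 to 15.5 TPM). In WT replicate 1, 37.4% of transcripts were at 0 counts, against 22.8% to 24.8% in the other 5 mice. Choroid plexus markers ranged from 604 to 7239 TPM without following genotype or replicate number, and none of the 22 cell type markers was at 0 in any mouse. Results that changed when both mice numbered 1 were left out are given both ways. How far these differences between mice contributed to the values of the family was not tested.

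Prmt9, the targeted gene, was the member that separated the genotypes by the widest margin. Its gene TPM was 11.8, 15.2 and 14.96 in WT replicates 1, 2 and 3, and 3.93, 4.61 and 4.67 in KO replicates 1, 2 and 3. Every KO mouse was below every WT mouse, and the KO mean of 4.405 ± 0.409 (SD, n = 3) was 31.5% of the WT mean of 13.99 ± 1.93 (SD, n = 3). Among the 15180 genes with a mean of at least 1 TPM, 1.15% had every KO mouse below every WT mouse. With 3 mice against 3, the exact two-sided permutation test cannot give a p below 0.1, the value reached here.

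On the count scale the Prmt9 values were tighter still. Normalised CPM, the count scaled by library size, was 21.3, 21.2 and 20.9 in WT replicates 1, 2 and 3, and 6.28, 6.47 and 6.70 in the KO replicates, so the 2 mice numbered 1 did not stand apart for this gene. The log2 fold change was -1.71 (SE 0.10, 95% interval -1.95 to -1.47) in edgeR's quasi-likelihood test across 20315 genes, with a Benjamini-Hochberg adjusted p of 0.0327. Prmt9 had the smallest p of all genes, and was the 1 gene with an adjusted p below 0.05 (0.00492% of genes tested), but it missed the limit of 0.01 that was set for a call together with a fold change of 1.5. At that limit 0% of genes were called, and 252 genes had an unadjusted p below 0.05. Without both mice numbered 1 the log2 fold change was -1.67 and the adjusted p 0.00114, past the limit, and Prmt9 was then the 1 gene called among 20479 (0.00488%). With DESeq2's Wald test, the tool of the study's methods, the log2 fold change was -1.71 and the adjusted p 1.42e-60. DESeq2 called 2 of the 28228 genes it tested, Prmt9 as lower in KO (0.00354%) and 1 other gene as higher. Prmt9 ranked first by p in each of the 15 fits tried.

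The remaining Prmt9 signal in the KO mice was assigned mainly to Prmt9-201, a coding model that contains exon 5. Prmt9-201 was at 10.8, 11.3 and 11.7 TPM in the WT replicates and at 3.68, 3.39 and 4.32 TPM in the KO replicates, and the groups did not overlap. Of the other models, Prmt9-203, which keeps the introns on both sides of exon 5, was at 0.578, 1.72 and 1.63 TPM in WT and 0.232, 0.368 and 0.345 TPM in KO. Prmt9-204, a short retained-intron model that starts after exon 5, was at 0.379, 1.06 and 0.838 TPM in WT and was listed at 0, 0.217 and 0.00843 TPM in KO.
The nonsense-mediated decay model Prmt9-205, with a shortened exon 5, ranged from 0 to 1.17 TPM in WT and from 0 to 0.635 TPM in KO, so its groups overlapped. The coding model Prmt9-202 was listed at 0 in 5 mice and at 2.54e-11 TPM in KO replicate 2. Because 4 of the 5 models overlap exon 5 and none skips it, TPM in the KO mice does not show that exon 5 was transcribed there.

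**Figure D1:**
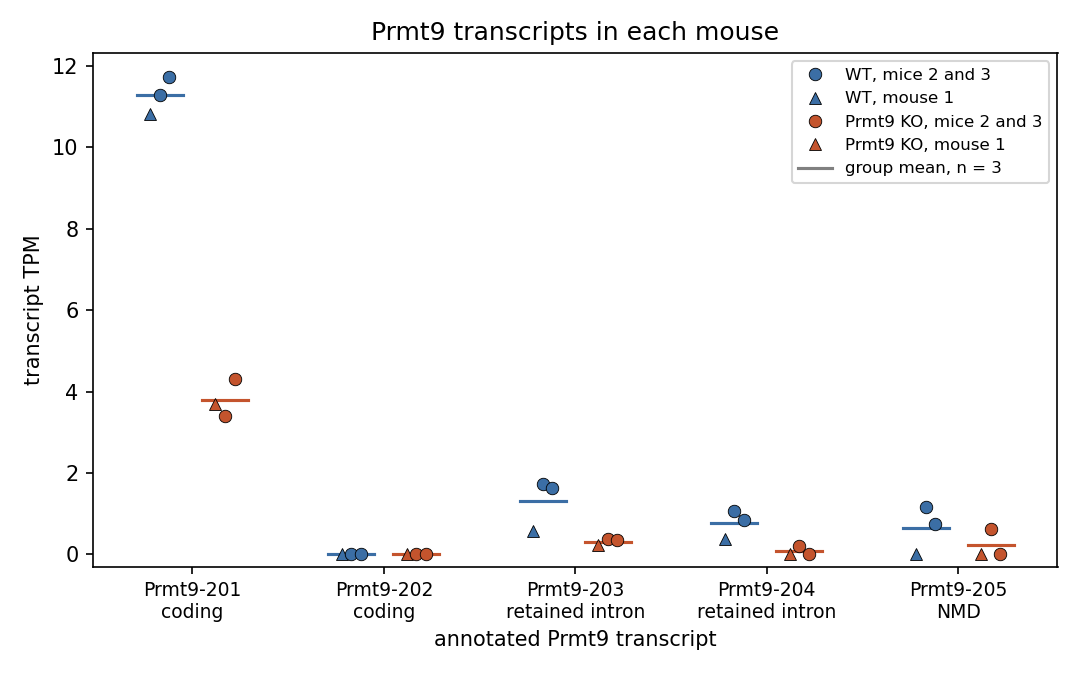
TPM (y axis) of the 5 annotated Prmt9 transcripts (x axis) in each mouse, WT in blue and Prmt9 KO in orange, with triangles for the mice numbered 1 and lines for the group means (n = 3). Prmt9-201 lies at 10.8 to 11.7 TPM in WT and 3.39 to 4.32 TPM in KO, and Prmt9-202 is at or next to 0 in each mouse.

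Tested one by one, no transcript of the family passed the limit in edgeR, where 0% of 75661 transcripts were called and 1216 had an unadjusted p below 0.05. Of the 65 member transcripts, 55 passed the filter on low counts, and the 2 with an unadjusted p below 0.05 were both of Prmt9. Prmt9-201 had a log2 fold change of -1.65 (SE 0.19) and Prmt9-203 one of -2.06 (SE 0.35), each with an edgeR adjusted p of 0.99999. DESeq2 called these 2 member transcripts, with adjusted p of 2.24e-09 and 8.46e-05, where it called 0.113% of all transcripts and 0.0455% as lower in KO. In the paper, exon 5 had no reads left in the KO mice. No annotated Prmt9 model skips exon 5, so transcript shares cannot show that change at any group size. Among the annotated models, the shares did not separate the genotypes. The share of Prmt9-201 was 0.919, 0.741 and 0.784 of Prmt9 TPM in WT and 0.936, 0.736 and 0.924 in KO (exact permutation p = 0.6, two-sided).

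The levels of the 9 mRNAs, compared as TPM and so per length, spanned more than an order of magnitude. Prmt1 was the highest in every mouse, followed in the WT means by Prmt2, Prmt5, Prmt8, Carm1, Prmt7, Prmt3, Prmt9 and Prmt6. Ranges of neighbours in this order overlapped in WT for Prmt5 with Prmt8 and for Prmt8 with Carm1, so those neighbours did not differ beyond their spread, although Prmt8 was above Carm1 in 3 of 3 WT mice. In the KO mice the order was the same except that Prmt9 was last. Prmt9 was above Prmt6 in 3 of 3 WT mice and below it in 3 of 3 KO mice.

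The 6 type I members together made up 79.8% of the summed TPM of the family in WT (SD 1.23 percentage points, n = 3) and 81.1% in KO (SD 0.923, n = 3). Type II members made up 14.1%, 15.7% and 15.4% in WT replicates 1, 2 and 3, and 12.8%, 13.6% and 14.1% in the KO replicates. These ranges touched, as KO replicate 3 was just above WT replicate 1. Prmt9 alone was 2.00%, 3.28% and 3.17% of the family in WT and 0.619%, 0.976% and 1.02% in KO. The 8 other members summed to 494 TPM in WT (SD 71.7, n = 3) and to 517 TPM in KO (SD 99.4, n = 3), a difference smaller than either spread.

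**Figure D2:**
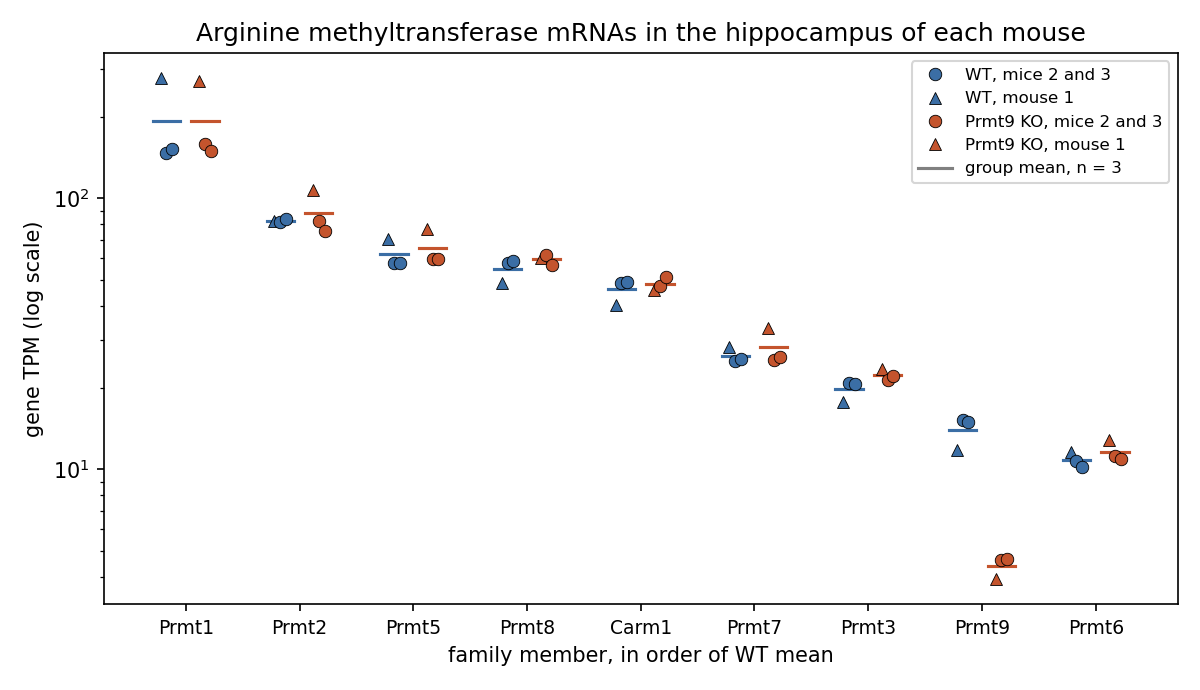
Gene TPM on a log scale (y axis) for the 9 family members in order of their WT mean (x axis), 1 point for each mouse, with triangles for the mice numbered 1 and lines for the group means (n = 3). Prmt9 drops from 11.8 to 15.2 TPM in WT to 3.93 to 4.67 TPM in KO, while Prmt1 is near 275 TPM in the mice numbered 1 of both genotypes and 147 to 158 TPM in the other 4.

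Among the type I members, Prmt1 (chr7:44975989-44986568) differed between mice far more than between genotypes. Its TPM was 278, 147 and 151 in WT replicates 1, 2 and 3, and 272, 158 and 149 in the KO replicates. The 2 mice numbered 1 were 1.81 times the mean of the other 4 and outside their range, as were 70.8% of all genes with a mean of at least 1 TPM. These are also the 2 mice with the lowest oligodendrocyte and neuron marker TPM. Of the endothelial markers, Cldn5 was highest in them and Pecam1 did not set them apart. The log2 fold change between genotypes was -0.12 (SE 0.42, 95% interval -1.13 to 0.90) with all 6 mice and 0.03 (SE 0.05, 95% interval -0.08 to 0.14) without the mice numbered 1.

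Prmt2 (chr10:76207222-76237865), a weakly active type I member also known as a nuclear receptor coactivator, was at 82.2, 81.7 and 83.5 TPM in the WT replicates and 107, 82.4 and 75.4 TPM in the KO replicates. The WT values lay within the KO range. Prmt8 (chr6:127689011-127769472), a membrane-anchored enzyme closely related to PRMT1, was at 48.5, 57.5 and 58.6 TPM in WT and 59.9, 61.8 and 56.9 TPM in KO, and the groups overlapped. It was the fourth most abundant member, so the brain-enriched member was present at a level close to that of Carm1.

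Carm1 (chr9:21546894-21592623) had one of the narrowest spreads on the count scale. Its TPM was 40.4, 48.8 and 49.2 in WT and 46.0, 47.4 and 51.4 in KO, and its log2 fold change was -0.01 (SE 0.08, 95% interval -0.20 to 0.19). Prmt6 (chr3:110246109-110250998), a nuclear histone methyltransferase, was at 11.6, 10.7 and 10.2 TPM in WT and 12.8, 11.1 and 10.9 TPM in KO, and the groups overlapped.

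Prmt3 (chr7:49778346-49858265), a cytosolic enzyme that methylates a ribosomal protein, was the 1 member besides Prmt9 whose genotypes did not overlap in TPM. Its TPM was 17.7, 20.9 and 20.7 in WT and 23.4, 21.4 and 22.0 in KO, so the KO mean was 113% of the WT mean (exact permutation p = 0.1, two-sided, the smallest that 3 against 3 allows). Every KO mouse above every WT mouse was the pattern of 4.81% of all genes, against 1 of 9 members here. On the count scale the separation was absent, with 27.6, 21.6 and 20.9 normalised CPM in WT and 27.3, 21.9 and 21.9 in KO, and the log2 fold change was 0.02 (SE 0.16, 95% interval -0.36 to 0.41).

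Of the type II and type III members, Prmt5 (chr14:54507187-54517525), which forms a complex with WDR77 and carries out most symmetric dimethylation, was at 71.0, 57.7 and 57.8 TPM in WT and 77.1, 59.9 and 59.6 TPM in KO. Its 2 highest values were in the mice numbered 1. Its log2 fold change was -0.02 (SE 0.27, 95% interval -0.68 to 0.63) with all mice and 0.06 (SE 0.03, 95% interval -0.03 to 0.14) without the mice numbered 1, so the other type II member was not called as changed in either fit. Prmt7 (chr8:106210936-106252794) was at 28.2, 25.03 and 25.5 TPM in WT and 33.1, 25.4 and 26.0 TPM in KO, again highest in the mice numbered 1 and overlapping between genotypes.

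Taking the 8 members other than Prmt9, none passed the limit in any of the 15 fits. Their log2 fold changes ranged from -0.12 to 0.05 with 4 above and 4 below 0, and their median was 0.00 beside -0.01 over all genes tested. All 8 intervals included 0. The intervals reached from -1.13 to 0.90 in the fit of all 6 mice without a block, both bounds being those of Prmt1. They reached from -0.27 to 0.20 with the replicate number as a block, which also uses all 6 mice, and from -0.19 to 0.20 without the mice numbered 1. The KO mean TPM of these 8 was 101% to 113% of the WT mean, a direction that does not hold on the count scale, and no direction is drawn from it.

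**Figure D3:**
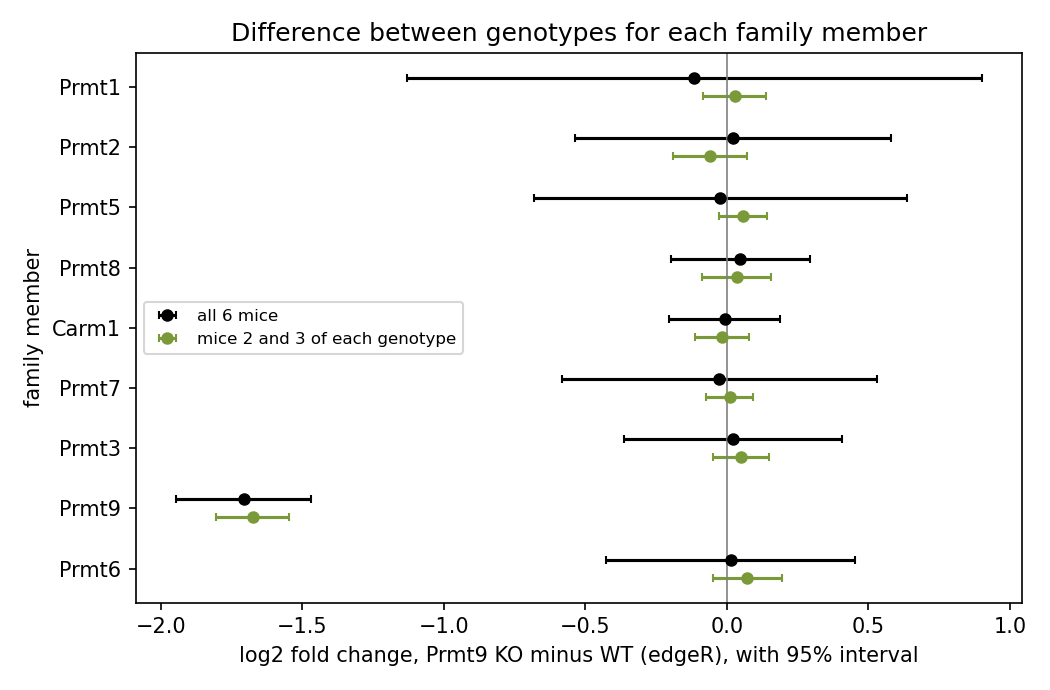
Log2 fold change of Prmt9 KO minus WT (x axis) for the 9 members (y axis) from edgeR, with bars for the 95% interval, using all 6 mice (black) and the 4 mice numbered 2 and 3 (green). Prmt9 lies at -1.71 and -1.67, and the intervals of the 8 other members include 0 in both fits and are widest for Prmt1 with all mice.

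The difference between mice numbered 1 and the others was a feature of most of the family on the count scale. Normalised CPM was higher in both mice numbered 1 than in any of the other 4 for 7 of the 9 members, where 32.7% of all genes had that pattern and 31.5% the opposite one. Carm1 and Prmt9 were the 2 members without it. Prmt1 was at 135 and 114 CPM in WT and KO replicate 1 against 58.1 to 63.0 CPM in the other 4 mice, and Prmt7 at 59.0 and 56.3 CPM against 39.0 to 39.2 CPM. Carm1 lay between 65.3 and 68.6 CPM in all 6 mice. In TPM the pattern differed, as Prmt2, Prmt3, Prmt8 and Prmt9 did not set the mice numbered 1 apart. Carm1 TPM was lower in these mice (40.4 and 46.0 TPM against 47.4 to 51.4 TPM in the other 4). These splits follow the replicate number and not the genotype, and the intervals of the genotype comparison were narrower without these mice.

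Isoform use was compared as the share of each transcript in the TPM of its gene. Relative use was tested with edgeR's diffSpliceDGE in the 8 members with at least 2 transcripts past the filter, which leaves out Prmt8 with its single annotated transcript. None of these 8 passed an adjusted p of 0.01 (all adjusted p = 1, smallest unadjusted p = 0.277, for Prmt6), where 22 of 13560 genes did (0.162%). Limma's diffSplice called none of them either, with 0.0221% of all genes called, and no member was called in any of the 12 alternatives run for this test. The loss of exon 5 from Prmt9 RNA could not appear in this test, as no annotated model skips it.

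The transcript with the highest mean TPM over the 6 mice was a coding one in each of the 9 members, although in Prmt6 the decay-annotated Prmt6-202 was above the coding Prmt6-201 in WT replicates 2 and 3 and in KO replicate 2. It was Prmt1-214 for Prmt1, at 0.361 ± 0.017 of the gene's TPM in WT and 0.395 ± 0.021 in KO (SD, n = 3). For the other members with more than 1 transcript, the leading transcript took a mean WT share of 0.535 in Prmt2 (Prmt2-201), 0.762 in Prmt3 (Prmt3-201), 0.612 in Carm1 (Carm1-201), 0.831 in Prmt5 (Prmt5-201), 0.481 in Prmt6 (Prmt6-201), 0.778 in Prmt7 (Prmt7-201) and 0.815 in Prmt9 (Prmt9-201). Prmt6 was divided mainly between Prmt6-201 and Prmt6-202.

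Within Prmt6, 2 of the 3 transcripts differed in mean share by more than 0.05 with overlapping groups, and are given here after their values were seen. Differences of this size were not confined to Prmt6, as Prmt3-201 (-0.063) and Prmt9-201 (0.051) also had them with overlapping groups. The share of Prmt6-202 was 0.385, 0.550 and 0.487 in WT and 0.306, 0.463 and 0.401 in KO, lower in the KO mouse of each of the 3 replicate numbers (exact permutation p = 0.3, two-sided). Without both mice numbered 1 its groups did not overlap, which was so for 41.6% of all transcripts. The share of the coding Prmt6-203 was 0.038, 0.00037 and 0.096 in WT and 0.159, 0.082 and 0.152 in KO, higher in the KO mouse of each replicate number (exact permutation p = 0.2, two-sided). The labels give no pairing of mice by number, and KO replicate 2 at 0.082 was below WT replicate 3 at 0.096. Prmt6-202 (chr3:110246109-110250998, 3059 bases) and Prmt6-203 (chr3:110246112-110250993, 3051 bases) each have 2 exons and 1134 coding bases. Between models so alike the division of reads is an estimate, and no change of isoform is drawn from their opposite differences. For Prmt6 the adjusted p of relative use was 1 in edgeR, with or without the replicate block, and 0.993 in limma's diffSplice.

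Less abundant transcripts also differed between mice. In Prmt2, Prmt2-202 and Prmt2-203, both coding, held mean WT shares of 0.222 and 0.075, and the retained-intron transcript Prmt2-209 held 0.025 and 0.036 in WT and KO replicate 1 against 0.065 to 0.076 in the other 4 mice. In Carm1, the retained-intron transcript Carm1-209 held 0.046 and 0.062 in the mice numbered 1 and 0.075 to 0.080 in the others. In Prmt3, the noncoding Prmt3-207 was listed at 0 in WT replicate 1 and took 0.074 to 0.113 of Prmt3 TPM in the other 5 mice. Prmt5-202, a decay-annotated transcript of Prmt5, held 0.084 in WT and 0.083 in KO on average, with overlapping groups.

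Of 29 member transcripts with a mean share of at least 0.05, 2 had shares that did not overlap between genotypes, both of them of Prmt1, which is 6.90% beside 9.36% of all such transcripts. Neither differs by the 0.05 in mean share that was set for naming single transcripts, and they are given because they are the whole of that count. The share of Prmt1-201 was 0.240, 0.205 and 0.196 in WT and 0.183, 0.175 and 0.177 in KO (exact permutation p = 0.1, two-sided). The share of Prmt1-214 was 0.380, 0.352 and 0.350 in WT and 0.419, 0.381 and 0.386 in KO (exact permutation p = 0.1, two-sided). Prmt1-201 was thus the lower of the pair in KO and Prmt1-214 the higher, by 0.036 and 0.035 in mean share.

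The models differ at their 5′ part. Prmt1-203 runs from exon 1 through exons of 102, 156 and 64 bases, Prmt1-201 lacks the 102-base exon and uses an acceptor 3 bases further in, and Prmt1-214 joins exon 1 to the exon after these. With such overlapping models, the division of reads among them is an estimate. When estimated counts were used in place of TPM, Prmt1-214 no longer separated the genotypes and Prmt1-201 still did.

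**Figure D4:**
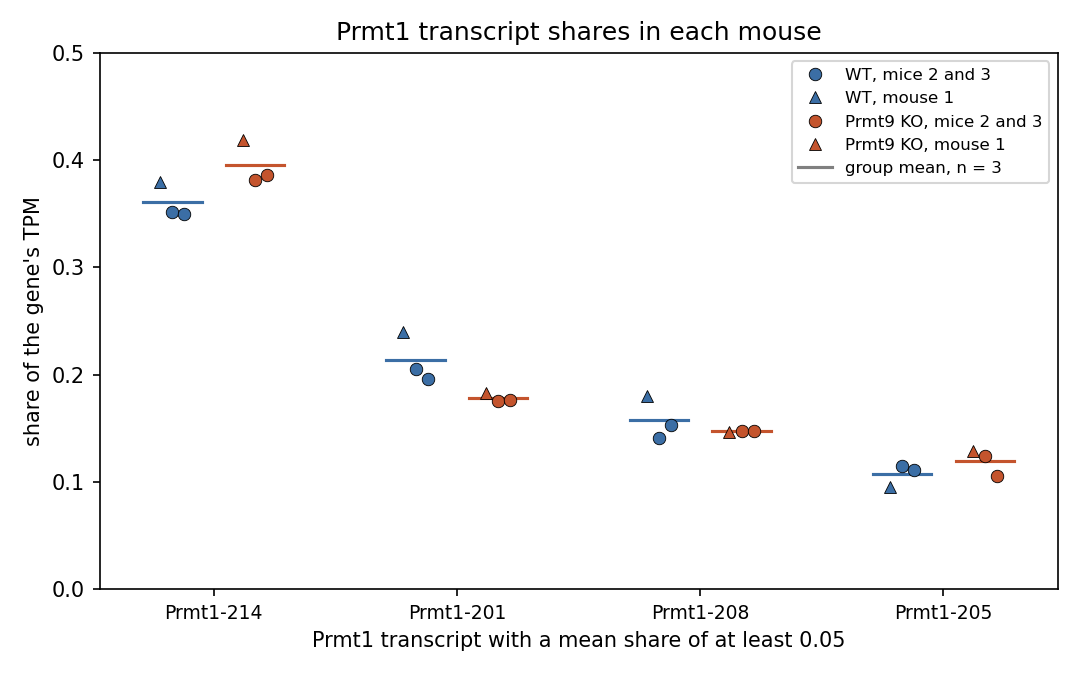
Share of Prmt1 TPM (y axis) held by the 4 Prmt1 transcripts with a mean share of at least 0.05 (x axis) in each mouse, with triangles for the mice numbered 1 and lines for the group means (n = 3). Prmt1-214 lies at 0.350 to 0.380 in WT and 0.381 to 0.419 in KO, Prmt1-201 at 0.196 to 0.240 in WT and 0.175 to 0.183 in KO, and the other 2 overlap.

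The early alternative exon of Prmt1 printed above was mostly left out in both genotypes. Among transcripts that hold both of its junctions or join its neighbours directly, those that skip it took 86.9%, 90.2% and 91.5% of TPM in WT and 90.9%, 90.8% and 90.9% in KO (exact permutation p = 0.5, two-sided). Carm1 exon 15, by the same measure, was skipped in 0%, 2.39% and 1.72% of TPM in WT and in 1.21%, 1.44% and 2.81% in KO (exact permutation p = 0.7, two-sided). Of the 10 Carm1 transcripts, this measure covers 3 that hold both junctions and 1 that skips the exon. Among these, TPM lay almost entirely with the forms that include exon 15, in mice of both genotypes. Left out are Carm1-202, Carm1-205 and Carm1-209, which overlap the exon without both junctions, and Carm1-207, Carm1-208 and Carm1-210, which do neither.

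The protein-coding share, the TPM of coding transcripts over that of all transcripts of a gene, ranged in WT means from 0.526 for Prmt6 to 0.938 for Prmt1 among the 8 members with more than 1 transcript. The Prmt6 value depends on how reads were divided between Prmt6-202, annotated for decay, and the closely alike coding Prmt6-203. The coding share did not overlap between genotypes in 1 of the 8 members, Prmt7, beside 8.58% of all genes. The coding share of Prmt7 was 0.903, 0.855 and 0.860 in WT and 0.845, 0.853 and 0.834 in KO (exact permutation p = 0.1, two-sided). The nearest values of the groups, 0.855 and 0.853, differ by less than the spread within either group, and with estimated counts the groups overlapped. In Prmt3 the coding share was 0.917 in WT replicate 1 and 0.754 in KO replicate 1, against 0.669 to 0.688 in the other 4 mice, so there again the mice numbered 1 stood apart.

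Genes that work with this family were read from a list of 29, all of which were tested and none of which passed the limit in either direction (0% of all genes). Their median log2 fold change was -0.02, with 12 above and 17 below 0, beside a median of -0.01 over all genes tested. The 6 partners and regulators, among them Wdr77 and Clns1a (subunits of PRMT5 complexes), ranged from -0.21 to 0.07, and the 8 genes of the methyl donor cycle, among them Mat2a (which makes S-adenosylmethionine) and Ahcy (which clears its product), from -0.16 to 0.19. The 5 Tudor readers and partner, such as Smn1 and Tdrd3, ranged from -0.01 to 0.09. The 4 enzymes acting on arginine or methylarginine ranged from -0.28 to 0.13, and Ndufaf7 and Mettl23, arginine methyltransferases outside the family, were at -0.11 and -0.16. In the group of 4 PRMT9 interactors and substrate complex genes, which also holds Sf3b2 and Sf3b4, Ube3c (a ubiquitin ligase) and Vcp (an ATPase that unfolds ubiquitinated proteins) were at 0.04 and -0.02.

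The 3 genes of this list with the largest differences were Sf3b2, Padi2 and Sf3b4. Sf3b2, which encodes the PRMT9 substrate, was at 127, 156 and 160 TPM in WT and 120, 131 and 134 TPM in KO. Its groups overlapped through WT replicate 1, and within each replicate number the KO mouse was below the WT mouse, although the labels give no pairing by number. Its log2 fold change was -0.28 (SE 0.09, 95% interval -0.49 to -0.07), with an edgeR adjusted p of 0.9999 that does not pass the limit. The value stayed below 0 in each of the 15 fits, from -0.30 to -0.20, and its lowest adjusted p was 0.0955, in the edgeR fit without both mice numbered 1. Btg2, Jmjd6 and Sf3b4 also stayed below 0 in every fit, and Mat2a, Mtr, Tdrd3 and Top3b stayed above 0. The fits share the same mice, so an unchanged sign is not separate evidence.

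Sf3b4, which encodes another subunit of the same spliceosomal complex, was at 38.7, 43.2 and 43.4 TPM in WT and 37.5, 37.3 and 37.6 TPM in KO. The groups did not overlap, a pattern with KO below WT that 1.15% of all genes and 1 of the 29 listed genes had. The opposite pattern, with KO above WT, was that of 4.81% of all genes and of 2 listed genes, Wdr77 and Tdrd3, named here after their values were seen. The log2 fold change of Sf3b4 was -0.23 (SE 0.11), with an edgeR adjusted p of 0.9999. Padi2, a peptidylarginine deiminase that is prominent in oligodendrocytes, was at 6.57, 25.5 and 23.0 TPM in WT and 6.52, 18.5 and 20.6 TPM in KO, with a log2 fold change of -0.28 (SE 0.49, edgeR). Its low values were in the 2 mice with low Mbp and Mog.

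**Figure D5:**
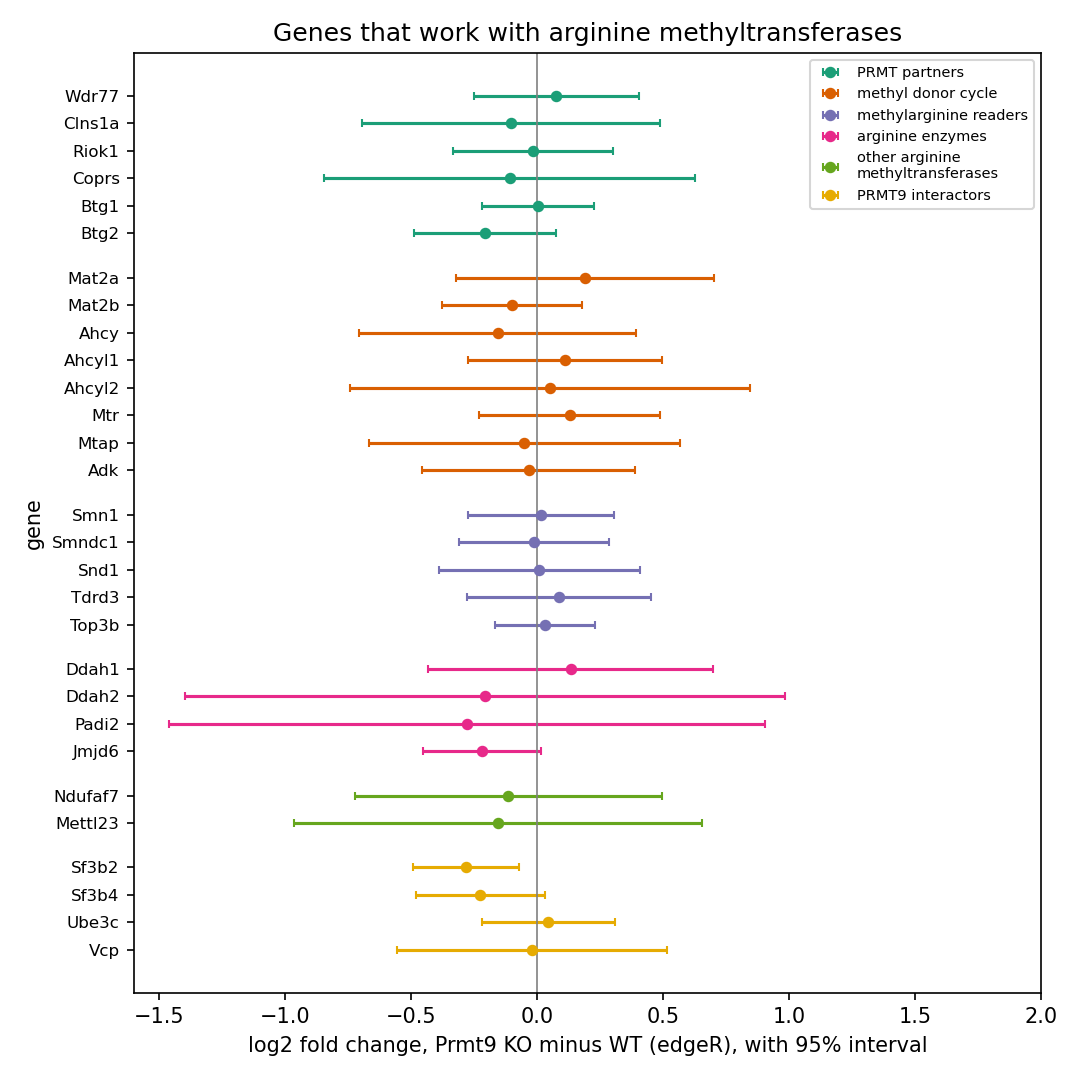
Log2 fold change of Prmt9 KO minus WT (x axis) with its 95% interval from edgeR for the 29 genes that work with the family (y axis), coloured by their group. Of the 29 intervals, the one of Sf3b2 (-0.49 to -0.07) leaves out 0, beside 252 of 20315 genes tested with an unadjusted p below 0.05 (edgeR). With the replicate number as a block, intervals that leave out 0 include those of Btg2 (-0.40 to -0.01), Jmjd6 (-0.40 to -0.03) and Mat2a (0.02 to 0.40). No gene passes the adjusted limit.

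Markers of other cell types were set beside the genotype comparison. Summed TPM of the 3 microglia markers Cx3cr1, P2ry12 and C1qa was 147 to 154 in WT and 113 to 145 in KO, which did not overlap, while the sums for the 6 other cell types did. Of the 3 microglia markers, 1 (P2ry12) did not overlap by itself, with KO below WT, the pattern of 1.15% of all genes. Cx3cr1 and C1qa overlapped. The part of these markers in the values of the family was not tested.

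Across the 6 mice, the 3 genes whose log2(TPM + 1) followed that of Prmt9 most closely, of 15180 compared, were Fkbp2 (Pearson r = 0.980), Acaa1a (r = 0.978) and Spx (r = 0.975). These correlations are a description over 2 groups of 3 mice, with the same libraries behind every point. Fkbp2, which encodes an endoplasmic reticulum prolyl isomerase, was at 187, 192 and 190 TPM in WT and 173, 179 and 175 TPM in KO. Acaa1a, a peroxisomal thiolase, was at 90.5, 98.6 and 95.6 TPM in WT and 73.9, 79.1 and 80.9 TPM in KO. Spx, which encodes the neuropeptide spexin, was at 3.57, 3.79 and 3.73 TPM in WT and 1.83, 2.00 and 2.44 TPM in KO.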

How the data were processed

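Hippocampal polyA RNA of 6 mice was sequenced by the authors (TruSeq Stranded mRNA libraries, paired-end). The authors deposited, for each mouse, estimated counts and TPM per transcript from kallisto (0.46.0 in the submitters' processing notes, which also name STAR 2.7.1a and GRCm38), and a series table of TPM per gene, summed from the transcripts. Deposited TPM values are relative to each library, so a few abundant RNAs can shift all others. Of 118783 transcripts, 116622 matched GENCODE M21 names. Here estimated counts were summed per gene, rounded to whole numbers and tested with edgeR 4.0.16 (quasi-likelihood test, TMM, filterByExpr) on all genes, with Benjamini-Hochberg adjustment, with calls limited to adjusted p < 0.01 and changes of over 1.5-fold. The same was done per transcript, and diffSpliceDGE with Simes p tested relative use. Single shares had exact permutation tests. DESeq2 1.42.0 and limma 3.58.1 served as alternatives, limma on log2(TPM + 1) and log2(TPM + 0.1). The scripts were tested on simulated counts, where the usage test called some genes that had not been changed. Replicates were 3 mice per genotype. Deviations from the group means correlated between same-numbered mice at 0.553, 0.415 and 0.383, so the numbers were treated as pairs in a block fit, although mice 2 and 3 correlated across numbers as well. All 9 members are named. Of the 29 listed genes, those called and the 3 with the largest log2 fold change are named, with the 3 genes most like Prmt9 and, beyond this rule, further listed genes chosen after their values were seen. Per member, the leading transcript and transcripts that separate the genotypes are named. Members and lists were chosen with earlier results of these data known. One listed cell type marker is not reported here.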

Additional observations from a re-analysis of the deposited data

How the results depend on the processing

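Prmt9 was lower in KO in each of the 15 fits. It passed the limit of adjusted p below 0.01 when the fit held a term for the mice numbered 1 (log2 fold change -1.71, adjusted p 0.00128), without both mice numbered 1 (-1.67, adjusted p 0.00114) and with DESeq2 (-1.71), so the number of members called was 1 in these fits and 1 at an adjusted p below 0.05 with no fold limit, against 0. Leaving out 1 mouse at a time gave -1.73 to -1.68 with adjusted p of 0.101 to 0.905 and 0 members called. The replicate block gave -1.71 with an adjusted p of 0.0351 and changed no call of the family. Its transcript, usage and listed gene counts under the block stayed at 0. DESeq2 called 2 member transcripts against 0. Transcripts with separate shares numbered 2, against 1 with estimated counts, 10 without both mice numbered 1 (where 41.6% of all transcripts separate, since fewer mice do so more easily) and 3 to 7 leaving out 1 mouse. Without KO replicate 1 there were 7, without WT replicate 1 and without KO replicate 2 there were 5 each, and without WT replicate 3 and without KO replicate 3 there were 4 each. Members with separate coding shares numbered 1, against 0 with estimated counts, 4 without both mice numbered 1 and 1 to 3 leaving out 1 mouse, with 3 without WT replicate 1 and 2 without KO replicate 1 or KO replicate 2. For coding shares, the share over all genes was taken for the count with all mice alone (8.58%). The other coding share counts have no such share beside them, and nothing is drawn from them. The counts of members called for usage and of listed genes called were 0 under every alternative run. The interval of Prmt1 was -1.13 to 0.90 without the block and -0.27 to 0.13 with it.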
